A study of Homo sapiens with 2 samples.

Results

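The MYC domain is taken here as the stretch of human chromosome 8 (build hg19) between 127500000 and 131000000, with the MYC gene body at 128748315 to 128753680 on the plus strand. Every peak of the deposited list that overlaps this stretch by at least 1 bp is a member, and 23 of the 20085 listed peaks met that rule. The 23 peaks are also part of the 509 listed on chromosome 8 and of the 20072 on chromosomes 1 to 22 and X. The stretch lies wholly in band 8q24.21.

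The peaks come from NB4, an established human line of acute promyelocytic leukemia, whose cells carry the fusion of PML with the retinoic acid receptor alpha. Chromatin near an antibody against PML-RARA was tagged by CUT&Tag, in which a tethered transposase cuts and tags the DNA beside the antibody. The cells were grown in serum-containing medium, and the label for treatment reads NA. The 2 replicates form 1 group from the same line, whether from separate cultures is not stated, and the authors merged them into 1 peak list. The list holds no value per replicate and its sequencing depth is unknown, and neither another group nor a control antibody or input was analysed here. The values below therefore carry no spread between replicates and no test: they describe 1 locus in 1 list.

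MYC encodes a basic helix-loop-helix transcription factor that drives cell growth, ribosome production and division. Its level is high in immature blood cells and falls as myeloid cells mature, and promyelocytic leukemia cells are halted as promyelocytes. In blood cells MYC depends on remote enhancers as well as on its own promoter: a cluster far downstream of the gene, known as the blood enhancer cluster, is needed in mice for Myc expression in blood stem cells and in models of leukemia. The long noncoding RNA gene PVT1, whose locus also holds enhancers that act on MYC, is its next neighbour downstream.

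The antibody signal in the domain fell into a group on the MYC side and a distal block with an empty stretch between them. In the MYC-side group, 9 peaks lay from the MYC transcription start site (TSS) to 312 kb downstream and held 40.3% of the domain's summed signal. In the distal block, 13 peaks lay from 1.81 to 1.94 Mb downstream, inside the bin set aside for the blood enhancer cluster, and held 58.7%. The remaining peak lay 2204 kb downstream and held 0.998%. The MYC-side group and the block made up 39.1 and 56.5% of the domain's peaks, near their shares of its signal. Between the groups, 1496 kb had no listed peak, and upstream of the TSS peak the domain had none over 1246 kb. No hg19 gene annotation or list of enhancer modules was used, so the peaks are placed by their distance from MYC and are assigned to no other gene or module. Histone marks were not measured here, so whether any peak is an active enhancer in NB4 cells was not tested.

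**Figure D1:**
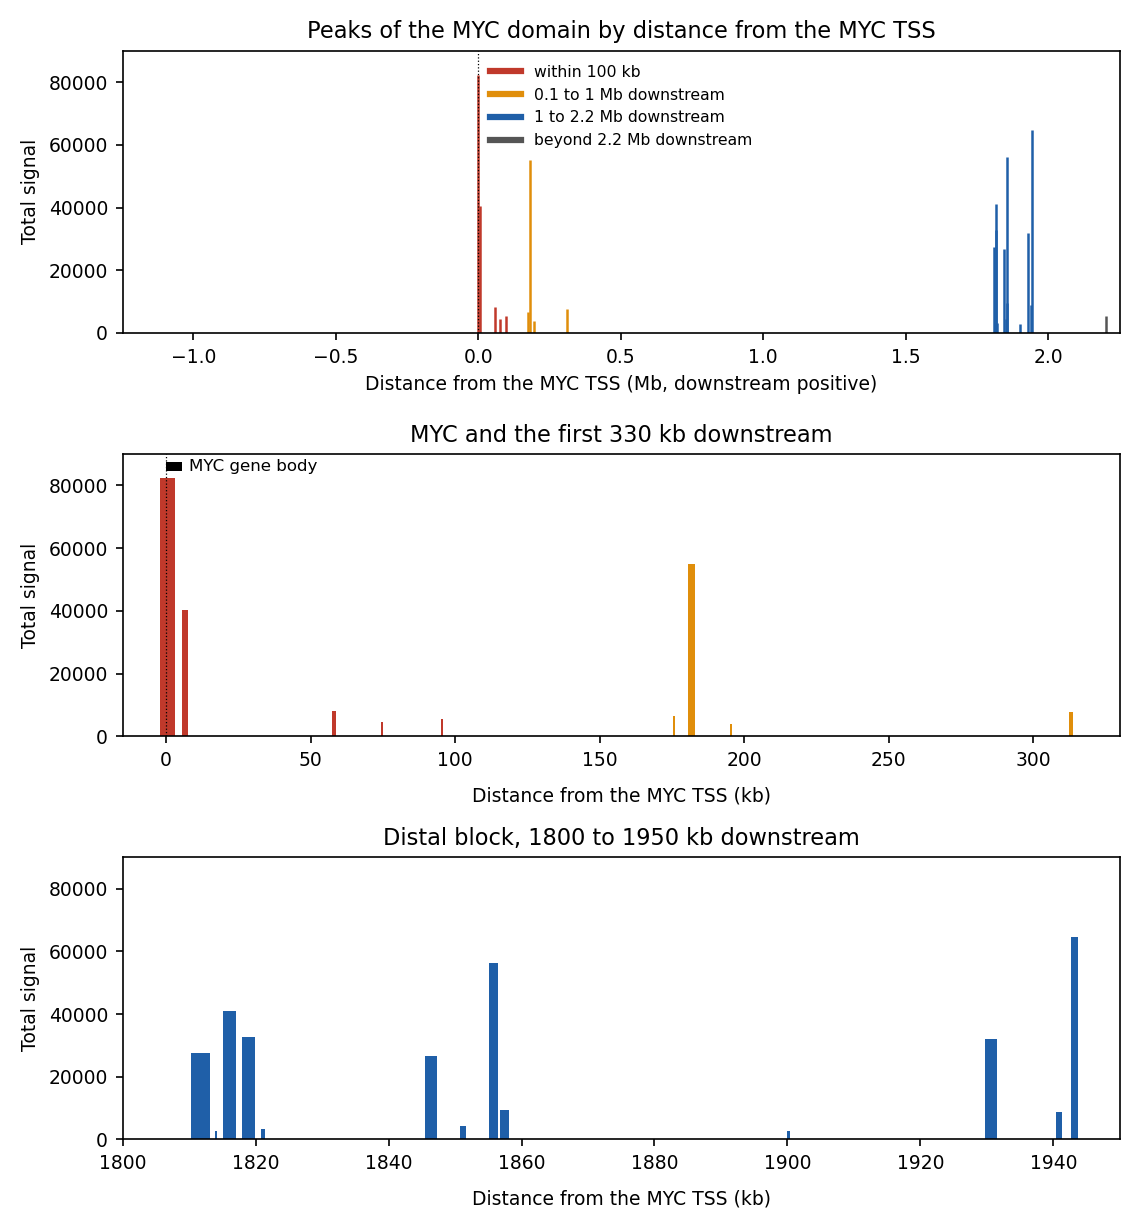
Total signal of each of the 23 peaks against distance from the MYC TSS, over the whole domain (top, in Mb), around MYC (middle, in kb) and in the distal block (bottom, in kb). Lines and bars are single peaks, bar widths are peak lengths to scale, and colours are distance bins. The strongest peak, with a total of 82396, stands at the TSS, and 13 peaks stand together 1.81 to 1.94 Mb downstream.

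The peak at the start of MYC had the highest total signal of the domain. It ran from 128746067 to 128751527, from 2248 bp upstream of the TSS to 3212 bp into the gene, so that it covered 59.9% of the 5365 bp gene body. The authors' total signal, which is read here as coverage summed over the bases of the peak, was 82396, and the maximum, read as the highest coverage within the peak, was 84. By total signal it ranked 366 of the 20072 peaks and 6 of the 509 on chromosome 8. By maximum it stood lower, at rank 1377 in the list and 27 on chromosome 8. At 5460 bp it was the longest peak of the domain, at the 99.1 percentile of length, where a percentile is the share of the 20072 peaks with a value no higher. The 3' part of the gene body used here was outside the peak: after a gap of 2363 bp, the next peak began 210 bp past its end.

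That next peak, at 128753890 to 128755999, had a total of 40405 and a maximum of 95. It was shorter than the TSS peak, at 2109 bp, and higher per base, with a signal per base of 19.2 against 15.1. Together the TSS peak and the one past the gene's end held 23.1% of the domain's signal on 7569 bp of peak. By total signal they stood at the 98.2 and 93.6 percentiles of the list. They lay at the start of the gene body used here and just beyond its end. Whether a longer model of MYC reaches the second peak was not measured.

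Farther out, most peaks of the MYC-side group were weaker than both peaks at the gene. Within 100 kb of the TSS the other 3 peaks began 57.4, 74.4 and 95.3 kb downstream. Their totals were 8179, 4385 and 5361 and their maxima 19, 17 and 34. These totals stood between the 33.0 and 58.7 percentiles, near the middle of the list.

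One strong peak stood apart from these weaker ones. At 128928935 to 128931176, 181 kb downstream of the TSS, it had a total of 55039 and a maximum of 102, the highest maximum of the MYC-side group. It ranked 781 in the list and 4 in the domain by total, and its signal per base of 24.6 exceeded that of both peaks at the gene. The 3 weaker peaks of this bin lay 175, 195 and 312 kb from the TSS and had totals of 6565, 3848 and 7706. The bin from 0.1 to 1 Mb thus rested on that 1 peak, which held 55039 of a sum of 73158.

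The distal block held more peaks on a shorter span than the MYC-side group, and its members came in clumps. It ran from 130558569 to 130692108, which is 134 kb, and its 13 peaks summed to 312089, against 213884 for the 9 peaks of the MYC-side group on 316 kb. Peaks covered 13.5% of the block and 4.92% of the MYC-side group's span. Joining neighbours no more than 10 kb apart gave 3 runs and 1 lone peak in the block. A neighbour within 10 kb was present for 12 of the block's 13 peaks and 4 of the 9 on the MYC side. In the list 61.4% of peaks had such a neighbour, so clumps are common there too, and the difference was not tested.

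The clump nearest to MYC had 5 peaks on 11.2 kb, from 130558569 to 130569776, separated by gaps of 717 to 851 bp. Its 3 long peaks had totals of 27531, 41004 and 32756 and maxima of 41, 94 and 81. The 2 short ones, with totals of 2650 and 3241, were among the weakest of the domain. The clump summed to 107182, or 20.2% of the domain's signal. With peaks no more than 1 kb apart merged, the clump counts as 1 peak.

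The next clump had 4 peaks on 12.5 kb, from 130593840 to 130606373, and summed to 96795 (18.2%). Most of that came from the peak at 130603411 to 130604759, with a total of 56231 and a maximum of 146 on 1348 bp. The others had totals of 26693, 4446 and 9425. A lone weak peak followed at 130648208 to 130648692, with a total of 2786 and a maximum of 12.

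The clump farthest from MYC had 3 peaks on 14.1 kb, from 130677979 to 130692108, and summed to 105326 (19.8%). The last of them, at 130690913 to 130692108, was the highest peak of the domain. Its maximum was 166 and its total 64588 on 1195 bp, and its signal per base of 54.0 stood at the 99.8 percentile of the list. By maximum it ranked 308 in the list and 4 on chromosome 8. The other peaks of the clump had totals of 31918 and 8820. With neighbours joined at up to 10 kb, the 3 clumps thus carried similar sums, between 96795 and 107182. Each was somewhat below the 122801 of the pair of peaks at MYC. A join at up to 5 kb splits the farthest clump into parts of 31918 and 73408, so the likeness of the sums depends on that setting.

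The TSS peak and the highest distal peaks differed in shape. The peak past the end of MYC (2109 bp, maximum 95) closely matched a distal one (2097 bp, maximum 94). Peaks of the block varied widely, from 396 bp with a maximum of 14 to 2872 bp with a maximum of 41. The TSS peak was long, and its maximum of 84 stood at the 93.1 percentile of the list. The 2 highest peaks of the block were higher and short: 1195 and 1348 bp with maxima of 166 and 146. In the whole list, 70 of the 16052 peaks no longer than 1.5 kb (0.436%) had a maximum of 146 or more. Of the 187 peaks at least as long as the TSS peak, 133 (71.1%) had a maximum of 84 or more, so that the TSS peak stood in the lower part of its length class. All these peaks were picked for their height, length or likeness after the values were seen, and no test was made.

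**Figure D2:**
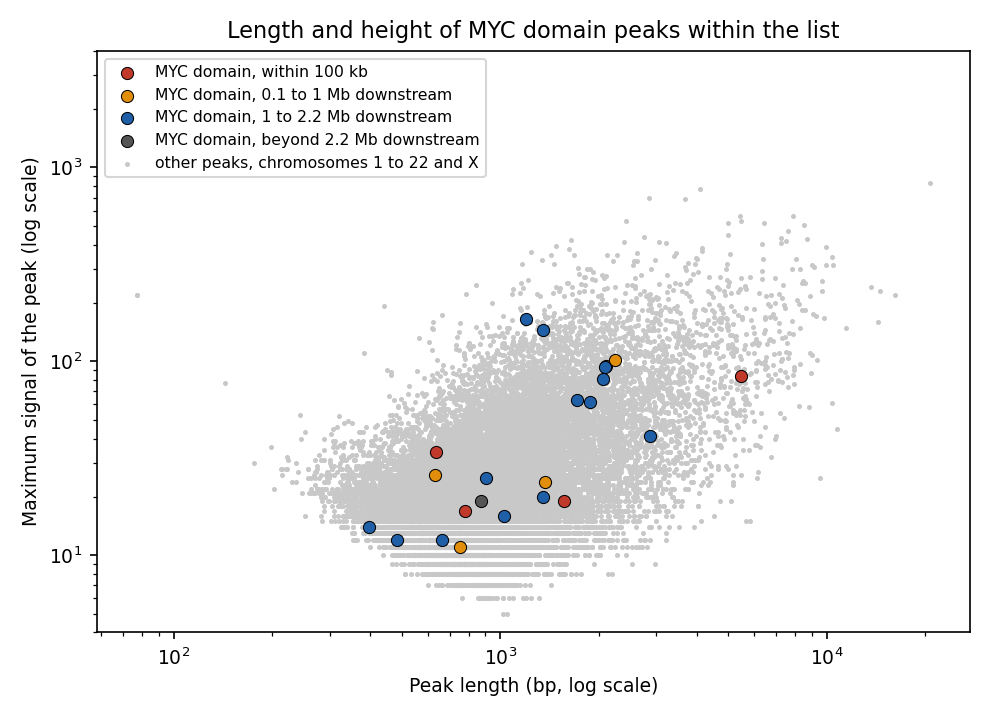
Maximum signal against length (bp), both on log scales, for the 23 domain peaks (large points, coloured by distance bin) and the other peaks of chromosomes 1 to 22 and X (small grey points). The 2 highest domain peaks, with maxima of 166 and 146, are short and lie in the 1 to 2.2 Mb bin, and the longest, of 5460 bp, is the TSS peak. The peak just past the end of MYC (2109 bp, maximum 95) is hidden behind a distal peak (2097 bp, maximum 94).

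By total signal, the domain peaks fell into a strong set and a weaker set. The 10 strongest had totals from 26693 to 82396 and held 86.3% of the domain's signal, and the 13 weakest had totals from 2650 to 9425. These 13 stood from the 2.13 to the 63.5 percentile of the list, so some were weak only beside the strong domain peaks. None of the 23 fell between 9425 and 26693, a range that held 24.9% of the list. Of the 10 strong peaks, 7 lay in the distal block, 2 at MYC and 1 at 181 kb. The block made up 56.5% of all domain peaks. Each clump of the block held both kinds. The limits of this range were set by the members themselves, so the empty range is a description only.

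Strong peaks made up a larger share of the domain than of the list, a difference that was not tested. At or above the 90th percentile of total signal (29657) stood 8 of the 23 peaks (34.8%), against 10.0% of the list. Of these 8, 5 were in the distal block, which held 56.5% of the domain's peaks. At or above the 75th percentile stood 10 (43.5%), against 25.0%. By maximum signal, 7 of 23 (30.4%) reached the 90th percentile, against 10.2% of the list, and 10 of 23 (43.5%) the 75th, against 25.3%. Peaks longer than 2 kb were 6 of 23 (26.1%), against 11.0%. A neighbour within 10 kb was present for 16 of 23 (69.6%), near the list's 61.4%.

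For total signal, medians lay closer together than upper quartiles. The highest total was lower in the domain, at 82396, than in the other peaks of the list, at 876984. The median total was 8820 in the domain (interquartile range 4874 to 36580) and 6475 in the other 20049 peaks (3753 to 13875), a ratio of 1.36. The median maximum was 26 in the domain and 22 in the others, and the median length 1348 bp in the domain and 893 bp in the others. Against the other 486 peaks of chromosome 8, whose median total was 5830, the ratio was 1.51. In the domain, 15 of 23 totals exceeded the median of the others. Peaks of 1 locus share their chromatin and their copy number, which was not measured here, so they are not replicates and no p-value is given.

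In number of peaks per Mb the domain as a whole was like the genome and above its own chromosome. It had 6.57 peaks per Mb, against 6.61 on chromosomes 1 to 22 and X and 3.48 on chromosome 8, and its summed signal per Mb was 151793, against 91169 and 41833. It made up 2.39% of the length of chromosome 8, 4.52% of its peaks and 8.68% of its signal. Among 41 stretches of 3.5 Mb laid end to end along that chromosome, it ranked 6 by peaks and 3 by summed signal. The stretches were laid from the domain's own edges, so the others were cut without regard to their peaks. The domain's summed signal was 531274, against a median of 47006 over the 41 stretches, and its 23 peaks stood against a median of 8.

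By distance from MYC, density was uneven. The 1.15 Mb upstream of the 100 kb window had 0 peaks. Within 100 kb of the TSS there were 5 peaks at 25.0 per Mb, all but part of the TSS peak on the downstream side. From 0.1 to 1 Mb there were 4 at 4.44 per Mb, and from 1 to 2.2 Mb 13 at 10.8 per Mb. All 13 lay in the 134 kb of the block, at 97.3 per Mb, and the rest of that bin was empty; the ends of the block are set by its own peaks. Of the domain's 35 windows of 100 kb, 7 held a peak (20.0%), against 23.4% of such windows on chromosomes 1 to 22 and X. Windows with 5 or more peaks were 2 of the 35 (5.71%), against 4.14% in the list. Both lay over the block and held 7 peaks each, a count reached by 2.29% of windows in the list. The peak at 130598991 to 130600017 spans their border and was counted in both.

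**Figure D3:**
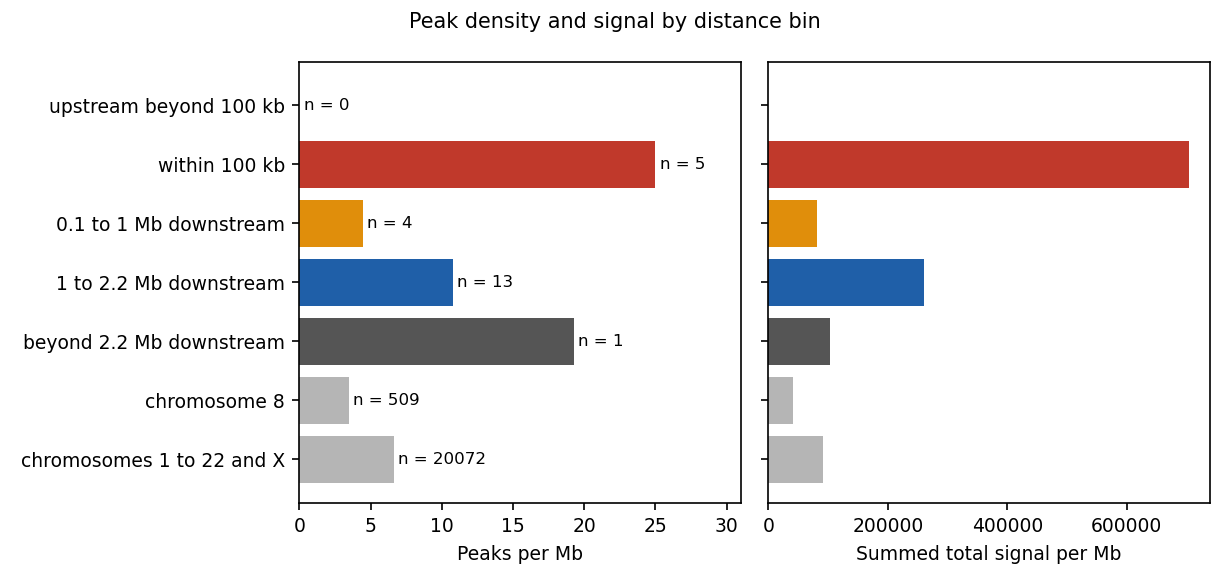
Peaks per Mb (left, with the number of peaks) and summed total signal per Mb (right) for the distance bins of the MYC domain and, in light grey, for chromosome 8 and for chromosomes 1 to 22 and X. The bin within 100 kb is densest at 25.0 peaks per Mb, the upstream bin has 0, and the last bin rests on 1 peak in 0.0517 Mb.

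Long stretches without a listed peak framed both groups. The peak before the TSS peak lay outside the domain, 2.12 Mb upstream, and had a total of 7729. Of the 20049 gaps between neighbouring peaks in the list, 277 (1.38%) were at least that long. The gap of 1496 kb between the MYC-side group and the block was equalled or exceeded by 421 gaps (2.10%), and the gap of 260 kb behind the block by 1776 (8.86%). Within the domain the median gap was 10.6 kb, against 14.8 kb in the list, so short gaps and very long ones stood side by side. A stretch without a listed peak shows only that nothing passed the authors' threshold there.

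The isolation of the distal block can be set beside that of other blocks. With peaks joined at gaps of up to 50 kb, the list had 429 blocks of at least 10 peaks, and 12 of them (2.80%) had at least 250 kb without a peak on each side. The distal block was 1 of the 12, with gaps of 1496 kb before and 260 kb after it. By summed signal it ranked 5 of the 12, placed between the block at chromosome 18, 74764631 to 74845565 (16 peaks, sum 411688) and the block at chromosome 9, 34986310 to 35117189 (11 peaks, sum 299838). The limits were chosen after the block's flanks had been seen, and the flank of 260 kb lies close to the limit. With peaks no more than 1 kb apart merged, the distal block has 8 peaks, below the limit of 10. The other blocks were not recounted in that way.

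**Figure D4:**
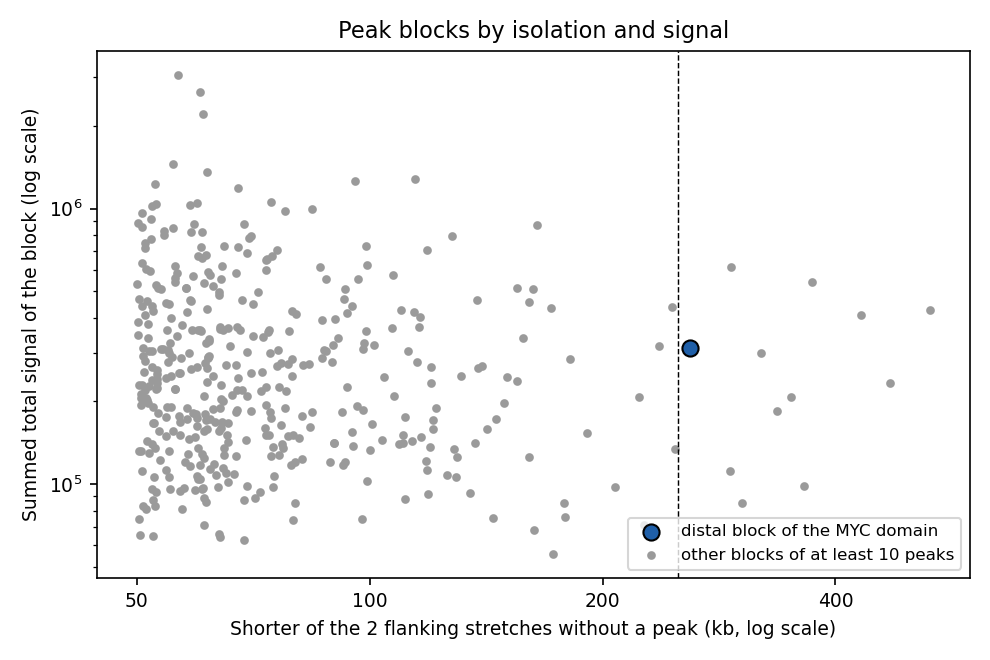
Summed total signal (log scale) against the shorter of both flanking stretches without a peak (kb, log scale) for blocks of at least 10 peaks. The distal block of the MYC domain (large point, shorter flank 260 kb, sum 312089) lies right of the dashed line at 250 kb with 11 other blocks.

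The gene order around MYC, read from a RefSeq table of another build and used without its coordinates, shows which genes flank it. Between MYC and GSDMC, which encodes a gasdermin and is the next protein-coding gene downstream, the table lists 21 genes: 11 long noncoding RNA genes, 6 microRNA genes, 4 pseudogenes and 0 protein-coding genes. PVT1 follows MYC directly, and CCDC26, a long noncoding RNA gene, stands before GSDMC. CYRIB, which encodes an inhibitor of Rac1 signalling to the actin cytoskeleton, comes after GSDMC. On the upstream side, POU5F1B, a retrogene related to the pluripotency factor gene POU5F1, is the single protein-coding gene between MYC and LRATD2. Which peaks lie in or near these genes was not measured. The table's MYC model is 7518 bp long, against the 5365 bp used here. Distances therefore hold for the TSS and gene end named above and not for every annotated start or end.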

How the data were processed

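CUT&Tag libraries of NB4 cells (2 replicates, 1 group) were sequenced paired-end on a MiSeq, per the labels' protocols. Trimmomatic, Bowtie2, SAMtools, bedtools and SEACR are named with hg19 in the submitters' processing notes; their versions, the threshold, any control and the merging were not given in the sources used here. In the deposited list stand positions and a pair of signal columns by the authors. The column headed width was read as SEACR's total signal and that headed peak as its maximum signal: in all 20085 rows the total exceeds end minus start and is at most length times maximum. Scaling to depth is not stated, and depth is unknown. Length is end minus start; positions are printed as listed, and starts may count from 0.

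Peaks were binned by midpoint from the MYC TSS, and compared with peaks of chromosomes 1 to 22 and X and of chromosome 8 (Python 3.11.15, pandas 2.3.3; hg19 chromosome lengths from GenomeInfoDb 1.38.1, bands from circlize 0.4.16). Functions were tested on simulated data. The rule for named items took MYC, its listed neighbours in gene order, and, as the domain holds no more than 40 peaks, any peak. All 10 listed genes matched the table by symbol. The members, bins and genes were chosen with earlier results of these data known. Alternatives varied the peak threshold, merging, weights and windows.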

Additional observations from a re-analysis of the deposited data

How the results depend on the processing

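Of 41 recomputed values, 26 stayed within 1.5 times the reported one and 15 did not. Keeping peaks at or above the list's median total left 15 in the domain, 3 within 100 kb, 9 from 1 to 2.2 Mb and 0 beyond 2.2 Mb; at the 75th percentile the numbers were 10, 2, 7 and 0, with 1 from 0.1 to 1 Mb. Merging peaks no more than 1 kb apart left 8 of the 13 distal peaks, and merging within 5 kb left 5 of them and 13 of the 23 in all. These settings remove or join peaks by construction. The upstream bin is left out of these numbers, since no setting can add a peak to it. Weighting by maximum or by length gave the 1 to 2.2 Mb bin 63.6 and 52.3% of the domain, and gave the single peak beyond 2.2 Mb 1.61 and 2.53%, against 0.998% by total signal. The ratio of median signal was 1.18 for the maximum and 1.27 per base. Windows of 50 kb with a peak were 12.9% of the domain's and 15.7% of the list's, and isolated blocks numbered 80 with flanks of at least 100 kb and 18 with 200 kb; these settings were chosen after seeing the data. Neither replicate could be left out, and no paired analysis was possible because the merged list carries no value per replicate. Depth is unknown, so no floor can be given for stretches without a peak.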

Other observations

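Just outside the domain, the nearest listed peak downstream lay at chromosome 8, 131006906 to 131008170, 6.91 kb past the domain's end, with a total of 12530 and a maximum of 33. It was stronger than the single domain peak beyond 2.2 Mb, at 130951903 to 130952774, which had a total of 5301 and a maximum of 19. The domain's end, which the rule sets, falls in the stretch of 54.1 kb without a listed peak between them. Band 8q24.21 held 25 peaks in all.

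Another of the 12 isolated blocks also lay on chromosome 8, at 27168814 to 27266997, with 10 peaks, a sum of 97918 and a highest maximum of 79. Its sum was below the 312089 of the distal block. Its flanks, of 682 and 365 kb, were longer than the 260 kb behind the distal block and shorter than the 1496 kb before it.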
